A study of Mus musculus with 12 samples.

Results

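Genes of iron handling were followed in M1-type macrophages of the mouse: Ncoa4, Fth1, Ftl1, Trf, Tfrc, Slc11a1, Slc40a1, Hmox1, Aco1 and Ireb2. These are 10 of the 27013 genes in the deposited expression table, and all 10 had an adjusted p there. They were listed by name for their part in iron handling, and Ncoa4 and Trf were picked for their fold changes in this same table, so the fold changes of that pair are a description and carry no test. The macrophages were grown from bone marrow of C57BL/6 mice, either wild type (WT) or with a conditional knockout of Ythdf2 (Ythdf2 cKO), with 20 ng/ml M-CSF for 7 days, and all were then stimulated for 24 hours with LPS at 100 ng/ml plus interferon gamma at 20 ng/ml. YTHDF2 is a protein that binds N6-methyladenosine (m6A) in mRNA and promotes decay of the marked RNA, and the study compared WT with Ythdf2 cKO cells. Of 12 libraries in 6 groups of 2, those used here are the m6A input libraries of both genotypes, the m6A immunoprecipitation and input of WT cells, and the YTHDF2 immunoprecipitation and input of WT cells. The Cre driver, the deleted part of Ythdf2, the age of the mice and whether the 2 replicates of a group are separate mice or cultures are all unstated in the sources used here, so the spread behind each error may be technical.

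Iron that enters a macrophage is either used, stored inside the ferritin shell, or exported, and a free excess of it is toxic. NCOA4 is the receptor that carries ferritin into autophagosomes and on to the lysosome, where iron is released again, a route called ferritinophagy. The iron regulatory proteins IRP1 and IRP2 bind a stem-loop called the iron-responsive element, in the 5′ UTR of ferritin and ferroportin mRNAs, where they block translation, and in the 3′ UTR of the transferrin receptor mRNA, where they slow its decay. Macrophages exposed to bacterial products and interferon are known to hold iron back from microbes.

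The expression table holds 1 comparison of the genotypes and no value per library. For each gene it gives the authors' mean normalized count over the input libraries, a log2 fold change, its standard error (SE) and a p adjusted over 10778 genes. How deeply each library was sequenced is unknown. The table does not say which genotype is the numerator. Ythdf2 itself was placed at 1.10 ± 0.16 (log2 fold change and SE) by the authors' deposited table, and a positive value is called here the side of Ythdf2. Its derived levels were 2404 on that side and 1120 on the other, so Ythdf2 RNA was counted on both sides. If positive stands for more RNA in WT, Ncoa4 RNA was higher in WT and Trf RNA higher in cKO; if it stands for more RNA in cKO, the reverse holds. The derived level on each side was worked out from the mean and the fold change, taking both sides to weigh equally. It is not a count of any library. Macrophage markers were abundant, with all 8 tested and a summed mean normalized count of 453641. Of these, Lyz2 at −1.49 ± 0.33 and Itgam at −0.55 ± 0.11 passed an adjusted p of 0.05 opposite to Ythdf2, and Cd68 at 0.40 ± 0.11 passed on its side. The sums over 5 erythroid, 4 T and NK cell, 4 dendritic cell and 4 B cell markers were 8, 2, 38 and 68. Hba-a2, Hbb-bt, Car1 and Ncr1 were not analysed here. Neutrophil markers summed to 14882, of which Lcn2, which activated macrophages also make, was 14164. S100a9 and S100a8 were detected at 326 and 304, and Ngp, Camp and Ltf at 44.6, 23.7 and 17.3. Ly6g, Mpo and Elane were at about 1 or below. Stromal markers summed to 1490, with 4 of 6 tested. Col1a1 at 0.56 ± 0.17 passed on the side of Ythdf2 (adjusted p 0.049, the authors' Wald test). Col1a2 at 0.46 ± 0.17 and Dcn at 0.36 ± 0.27 lay on that side without passing. Col3a1 lay opposite at −0.20 ± 0.27, also without passing. The part of stromal cells in the results below was not tested.

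Ncoa4, the ferritinophagy receptor (chromosome 14, 32159879 to 32179855, mm10), lay on the side of Ythdf2. Its mean normalized count was 1901, which corresponds to derived levels of 2372 on that side and 1431 on the other. On the log2 scale the authors' deposited table gives a difference of 0.73 ± 0.14 (SE), which is 1.66-fold with a 95% interval of 1.37 to 2.01. By size relative to its error it was number 25 of the 5246 tested genes above 0. Trf, which encodes the iron carrier transferrin (chromosome 9, 103208876 to 103230286), lay on the opposite side. Its mean normalized count was 994, with derived levels of 737 on the Ythdf2 side and 1250 opposite. The authors' deposited table gives a log2 difference of −0.76 ± 0.17 (SE), or 1.70-fold in the opposite direction, and Trf was number 13 of the 5532 tested genes below 0. Both genes were picked for these fold changes, so their ranks and the interval are a description and carry no test. In bulk RNA, fewer cells that express a gene and less of its RNA per cell cannot be told apart.

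The other 8 genes lay close to 0. Of the 10 genes, 2 passed the authors' adjusted p of 0.05, where 2.32% of all tested genes did: Ncoa4 on the side of Ythdf2, as 1.76% of all tested genes, and Trf on the opposite side, as 0.557%; since that pair was picked on this comparison, nothing is read from the count. None of the other 8 passed the authors' Wald test, and at an unadjusted p under 0.05 the count was also 0 of 8. Their log2 fold changes ran from −0.20 to 0.14 in the authors' deposited table, 3 above 0 and 5 below, with a median of −0.06, against −0.01 over all tested genes. Their 95% intervals together spanned folds of 0.721 to 1.33. These intervals bound the changes and do not show that the levels were equal.

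**Figure D1:**
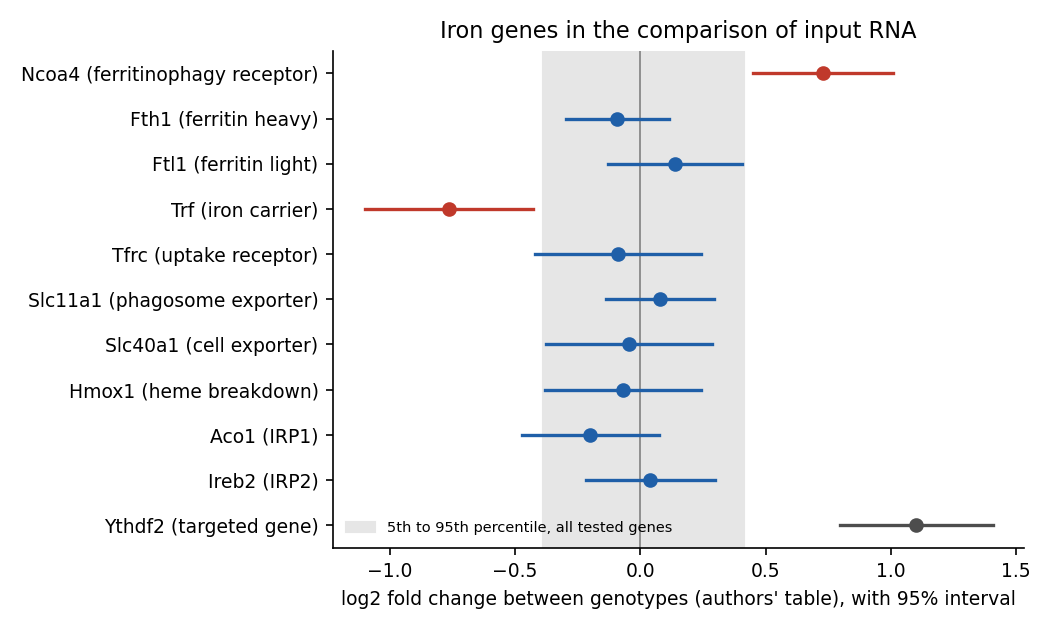
Log2 fold change between the genotypes (x axis, positive on the side of Ythdf2) for the 10 iron genes and Ythdf2, from the authors' deposited table; points are estimates, lines are 95% intervals, and the grey band spans the 5th to 95th percentile of all tested genes. Ncoa4 at 0.73 and Trf at −0.76, in red and picked for these values, lie outside the band, and the intervals of the other 8 iron genes cross 0.

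The ferritin genes, whose product is the cargo of NCOA4, had intervals that crossed 0. Fth1, the heavy subunit that oxidises iron (chromosome 19, 9980600 to 9985111), had the second-highest mean normalized count in the table, 1665002, or 5.37% of the sum over all genes. Its derived levels were 1612647 on the Ythdf2 side and 1717357 opposite, which the authors' deposited table gives as −0.09 ± 0.10 (log2 difference and SE; adjusted p 0.94, their Wald test). With an interval of 0.815-fold to 1.08-fold it was the most tightly measured of the 10 genes. Ftl1, the light subunit that lines the iron core (chromosome 7, 45457944 to 45459886), had a mean of 104195, with 109251 on the Ythdf2 side and 99140 opposite. The authors' deposited table has it at 0.14 ± 0.14 (adjusted p 0.90). The signs of the subunits differed and both intervals crossed 0. Ferritin genes have processed copies that can share their reads: Ftl1-ps1 stood at 1473 normalized counts and 0.82 ± 0.98, Ftl1-ps2 at 85.5 and 0.22 ± 0.36, and Fth-ps3 at 146 and −0.21 ± 0.30 in the authors' deposited table. How shared reads were counted is unstated in the sources used here.

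The receptor and the transporters were also near 0. Tfrc, the receptor that takes up iron-laden transferrin (chromosome 16, 32608896 to 32632794), had derived levels of 870 on the Ythdf2 side and 925 opposite, and the authors' deposited table has it at −0.09 ± 0.17 (adjusted p 0.98). Trf and its receptor thus stood at −0.76 and −0.09. Slc11a1, or NRAMP1, moves metal ions out of the phagosome (chromosome 1, 74375014 to 74386057); C57BL/6 mice are known to carry a variant that disables it. Its levels were 26760 and 25351, and the authors' deposited table gives a log2 difference of 0.08 ± 0.11 (adjusted p 0.96). Slc40a1 encodes ferroportin, the exporter of iron from the cell (chromosome 1, 45908070 to 45926532), and stood at 1046 and 1078, or −0.04 ± 0.17 (adjusted p 0.997). Hmox1 encodes heme oxygenase 1, which frees iron from heme (chromosome 8, 75093618 to 75100593), and stood at 63873 and 67034, or −0.07 ± 0.16 (adjusted p 0.99) in the same table.

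Of the iron regulatory proteins, Aco1 encodes IRP1, which serves as cytosolic aconitase when it holds an iron-sulfur cluster (chromosome 4, 40143265 to 40199009). Its derived levels were 1098 on the Ythdf2 side and 1261 opposite, and the authors' deposited table has it at −0.20 ± 0.14 (adjusted p 0.76), the lowest of the 8. Ireb2 encodes IRP2, which is degraded when iron is plentiful (chromosome 9, 54862658 to 54912534), and stood at 1759 and 1710, or 0.04 ± 0.13 (adjusted p 0.997). Other mRNAs known to carry an iron-responsive element were added as a list: of its 9 genes 7 were tested, 3 of them outside the genes above. Slc11a2 was at 0.14 ± 0.14, Cdc14a at −0.22 ± 0.30 and Cdc42bpa at −0.07 ± 0.32 in the authors' deposited table. None of the 7 passed, also at an unadjusted p under 0.05, and their median was −0.07. Alas2 and Epas1 had means of 3.8 and 14.4 and no adjusted p.

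The 6 wider lists placed these genes among 98 others of iron metabolism, autophagy, antioxidant defence and ferroptosis, of which 87 were tested. Of the 87, 1 passed the authors' adjusted p of 0.05, where 2.32% of all tested genes did, and their median log2 fold change of −0.01 was that of all tested genes. The one that passed was Slc39a14, a carrier of zinc and of iron not bound to transferrin, which the authors' deposited table has at −0.54 ± 0.15 (adjusted p 0.025, mean 782). It lay on the same side as Trf, and it lost the call when no gene was filtered out for low counts (adjusted p 0.062). In the list of uptake and transport, the siderophore-binding Lcn2 was at 0.23 ± 0.13 and Mcoln1, the channel that lets iron out of the lysosome, at 0.10 ± 0.14, neither past the threshold. Of the 9 tested genes of that list beside the members, 5 lay above 0 and 4 below, or 4 and 5 after centring on the most abundant genes.

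In the list of ferritin and ferritinophagy, the 20 tested genes beside Ncoa4, Fth1 and Ftl1 had a median of 0.08, with 14 above 0 and 6 below, where 5246 of 10778 tested genes lay above 0. Centred on the most abundant genes, 13 were above 0, and 4320 of all tested genes. None passed the authors' Wald test, and 2 of the 20 had an unadjusted p under 0.05, a share like that of all tested genes (1077 of 10778). Sqstm1, the p62 autophagy receptor, was at 0.39 ± 0.12 (adjusted p 0.068) and Tax1bp1, a receptor that works with NCOA4 in ferritin turnover, at 0.33 ± 0.12 (adjusted p 0.16) according to the authors' deposited table; Tax1bp1 was chosen after its values were seen. Herc2, the ubiquitin ligase that marks NCOA4 for degradation when iron is plentiful, was at −0.15 ± 0.12, and Atg9a, of the autophagy machinery, was at 0.06 in the same table. The genes of the kinase complex that starts autophagy lay on both sides, with Ulk1 at 0.11 ± 0.15, Rb1cc1 at 0.12 ± 0.14, Atg13 at 0.20 ± 0.16 and Atg101 at −0.18 ± 0.17 in the authors' deposited table. The iron chaperones Pcbp1 and Pcbp2, which load ferritin, were at 0.08 and 0.07. In the control of the iron regulatory proteins, Fbxl5, the iron-sensing part of the ligase that degrades IRP2, was at −0.13 ± 0.15 in the authors' deposited table. Of the other parts of that ligase, Rbx1 was at −0.18 ± 0.12, Skp1a at −0.15 ± 0.13 and Cul1 at 0.06 ± 0.14 in the same table. Of the 6 tested genes of that list beside Aco1 and Ireb2, 2 lay above 0 and 4 below with a median of −0.14, none passed, and none had an unadjusted p under 0.05.

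Heme genes were spread on both sides. Of 16 tested genes beside Hmox1, 6 lay above 0 and 10 below, and none passed. An unadjusted p under 0.05 was found for 2 of the 16, again near the share of all tested genes (1077 of 10778). Alas1, the first enzyme of heme synthesis, was at 0.35 ± 0.14 (adjusted p 0.21) and Flvcr1, a heme exporter, at 0.35 ± 0.13 (adjusted p 0.17) according to the authors' deposited table, while the biliverdin reductases Blvra and Blvrb were at −0.05 and −0.05. Of 19 tested genes of iron-sulfur cluster assembly and mitochondrial iron, 16 lay below 0 with a median of −0.10, where 5532 of 10778 tested genes lay below 0. None passed and none had an unadjusted p under 0.05. Centring, which lowers every gene by the same 0.04, put all 19 below 0, and 6458 of the 10778. That value is the median of the most abundant 25%, and over all tested genes the median was −0.01. Genes measured in the same libraries are no replicates of each other, so these counts are given without a test. The lowest were Bola3 at −0.43 ± 0.23 (adjusted p 0.57), Abcb8 at −0.35 ± 0.22, Fdxr at −0.30 ± 0.29 and Nfu1 at −0.30 ± 0.15 (adjusted p 0.52). Of 17 tested antioxidant and ferroptosis genes, 12 lay above 0 with a median of 0.11, where 5246 of 10778 tested genes lay above 0. None passed, and 2 of the 17 had an unadjusted p under 0.05, also near the share of all tested genes. Srxn1, a target of the NRF2 factor, was at 0.39 ± 0.13 (adjusted p 0.077) and Slc3a2, part of the cystine carrier, at 0.24 ± 0.11 (adjusted p 0.41) according to the authors' deposited table, and Gpx4, the enzyme that detoxifies lipid peroxides, was at −0.01 ± 0.12.

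**Figure D2:**
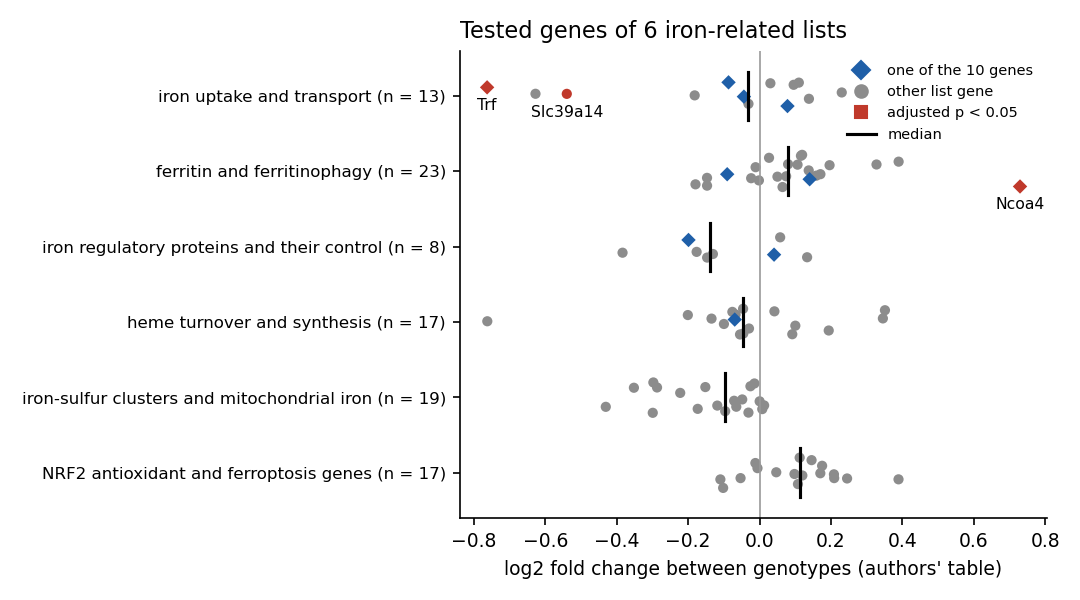
Log2 fold change (x axis, positive on the side of Ythdf2) of each tested gene in 6 iron-related lists, from the authors' deposited table, with the members among the 10 genes as diamonds, genes past an adjusted p of 0.05 in red and the median of each list as a black bar. Past the threshold are Ncoa4, Trf and Slc39a14, and the list medians lie between −0.14 and 0.11.

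Peaks of m6A and of YTHDF2 were deposited as a single list each for WT cells, so they carry no error between replicates. Peak names in the YTHDF2 list all start with m6a_peak, and whether it is independent of the m6A libraries was not tested. Of the 10 genes, 4 carried an m6A peak (Fth1, Slc40a1, Slc11a1 and Ireb2), where 45.4% of all tested genes did, and 8 carried a YTHDF2 peak, where 64.5% did. Both shares rose with expression: with tested genes split into 10 equal classes by mean count, the classes that hold these 10 genes had m6A peaks in 52.0% to 68.4% of genes and YTHDF2 peaks in 75.8% to 89.3%. Against genes of like expression, 8 of 10 was thus near the background and 4 of 10 below it, which is given without a test. The 4 genes with m6A all had a YTHDF2 peak as well, so 4 of the 10 genes had both, where 35.8% of all tested genes did. Over all tested genes, 3861 of the 4888 with an m6A peak also had a YTHDF2 peak. Ftl1, Tfrc, Hmox1 and Aco1 had YTHDF2 peaks alone. Ncoa4 and Trf had no peak in either list, also when any YTHDF2 peak over their position was searched under another gene name. Of all tested genes, 25.9% had no peak in either list, a share that fell with expression and was 7.61% in the class that holds Ncoa4 and 13.8% in that of Trf. Among the 250 genes that passed in the comparison of the genotypes, 40 (16.0%) had neither kind of peak. Among the 23 tested genes of ferritin and ferritinophagy, 22 had a YTHDF2 peak and Ncoa4 was the one without. Herc2 held 41 of these peaks and Becn1 held 6, counts that were not adjusted for transcript length.

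**Figure D3:**
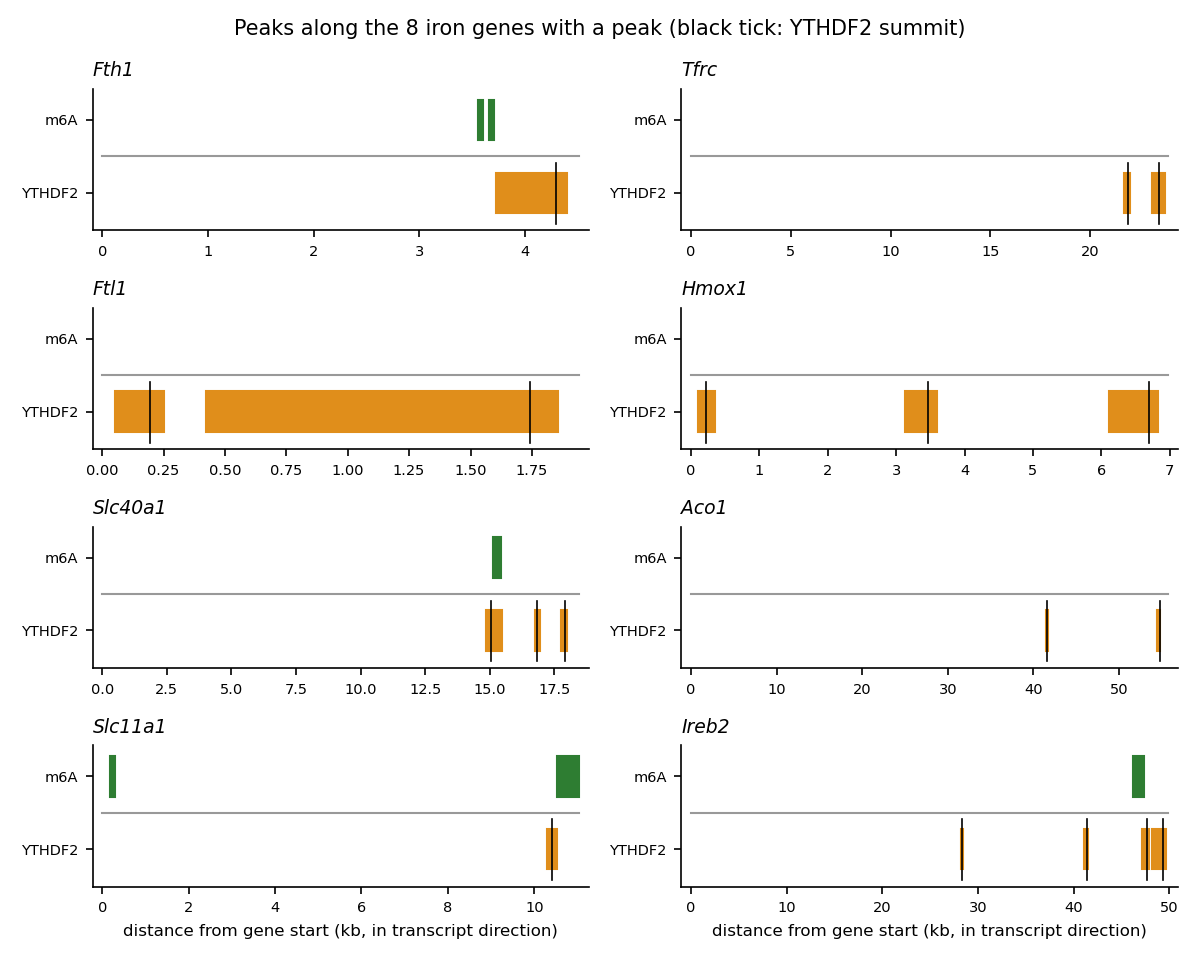
Peaks of m6A (green) and YTHDF2 (orange, summit as a black tick) along the 8 iron genes that have a peak, by distance in kb from the gene start in the direction of transcription; the grey line is the gene. Green boxes are drawn for Fth1, Slc40a1, Slc11a1 and Ireb2, and the YTHDF2 peaks of Tfrc all lie near its 3′ end.

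The 6 m6A peaks lay in different parts of their transcripts (coordinates on mm10 as the list gives them). In Slc11a1 one peak, at chromosome 1, 74375194 to 74375319, covers a transcript start that RefSeq places at 74375203. That start lies inside the gene, which begins at 74375014, and the peak runs from 180 to 305 bp after the gene start. The other, at 74385532 to 74386057, lay wholly in the 3′ UTR and took 526 of its 556 bp. The m6A mark is mostly set on a short consensus whose commonest form holds GGAC, and the 30 bases of the first peak at chr1:74375223-74375252, + strand, are shown because this is the one m6A peak of these genes for which a reference sequence was at hand (RefSeq, GRCm38.p6), with each GGAC in capitals.
Slc11a1 start: actcGGACcagcacccacagaaggGGACag
The letters GGAC occurred 2 times in these 30 bases, without overlap, and their reverse complement GTCC 0 times. Sequence was at hand for 59 bases of this peak, and the rest of them are not shown. Of 32851 RefSeq start windows, 18.9% hold GGAC on the transcript strand within the 50 bases after the start, and 33.3% on either strand. These shares are for any GGAC within 50 bases, which is unlike a count in a shown stretch of 30, so they are no background for it. A match of letters is a description and does not place the mark.

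In Slc40a1 the m6A peak at chromosome 1, 45911089 to 45911389, lay wholly in coding sequence and wholly inside a YTHDF2 peak at 45911068 to 45911661, whose fold enrichment was 3.52. Fth1 had 2 short m6A peaks at chromosome 19, 9984154 to 9984204 and 9984254 to 9984304. The second lay wholly in a coding exon of 146 bp, and 23 bp of the first did. Neither touched the YTHDF2 peak of Fth1, which began 18 bp after the second one. In Ireb2 the m6A peak at chromosome 9, 54908848 to 54910001, reached 260 bp into the 3′ UTR and shared 180 bp with a YTHDF2 peak at 54909822 to 54910492. The 3′ UTR peak of Slc11a1 shared 5 bp with a YTHDF2 peak over the last coding exon. In all, 3 of the 6 m6A peaks shared 1 bp or more with a YTHDF2 peak, where 49.1% of the m6A peaks that could be placed on a chromosome did. Since the origin of the YTHDF2 list was not tested, the overlap is one of listed positions alone.

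The 8 genes held 18 YTHDF2 peaks, with a summit in the 3′ UTR for 7, in coding sequence for 6, in an intron for 4 and in the 5′ UTR for 1. Over the whole list the shares were 38.5%, 35.8%, 23.6% and 2.07%. Each peak carries a fold enrichment at its summit that is the authors' value, and all peaks of this list bear names that start with m6a_peak; whether they come from the YTHDF2 or the m6A libraries was not tested. In Tfrc both summits lay in the 3′ UTR, the part that holds its iron-responsive elements, in peaks at chromosome 16, 32630586 to 32630867 and 32631963 to 32632647, with fold enrichments of 3.23 and 2.97. In Ftl1 a peak at chromosome 7, 45459634 to 45459833, had its summit in the 5′ UTR, the part that holds the iron-responsive element of ferritin, with a fold enrichment of 2.29. It was the only 5′ UTR summit among the 18. The iron-responsive elements of Tfrc and Ftl1 were not located here, so whether these peaks cover them is unknown. A second, wide peak of Ftl1, at 45458032 to 45459465, had its summit in the last coding exon and a fold enrichment of 1.82. A peak of 2.32 was listed under Gm10116, the name that the list gives to the copy Ftl1-ps1 (chromosome 13, 74406656 to 74406920). Slc40a1 had a peak in the 3′ UTR, at chromosome 1, 45908532 to 45908762, with a fold enrichment of 2.73, and a peak with its summit in coding sequence, 2 bp from an intron, at 45909581 to 45909780, of 3.51.

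Ireb2 and Aco1 held the highest fold enrichments of the 10 genes, both in a peak with its summit near an intron's edge. The Ireb2 peak at chromosome 9, 54890848 to 54891047, had 4.70, above 15998 of the 17843 peaks in the list, and its summit lay in an intron, 19 bp from an exon. The Aco1 peak at chromosome 4, 40184734 to 40184945, had 4.53, and its summit also lay in an intron, 17 bp from an exon. Whether these exons come before or after the intron was not determined. The other intron summits were that of an Ireb2 peak with 3.17, 47 bp from an exon, and that of a Hmox1 peak near the gene start, 65 bp from an exon. All 4 were thus within 70 bp of the intron's edge, as were 68.7% of the 4163 intron summits in the list. Ireb2 also had 2 peaks in its 3′ UTR, with 3.64 and 3.22, and Aco1 had 1 there, with 2.62. Hmox1 had peaks at chromosome 8, 75093723 to 75093974, 75096753 to 75097207 and 75099724 to 75100441, the last with its summit in the 3′ UTR. Their fold enrichments were 2.08, 1.70 and 2.02.

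Peaks in the more abundant of these genes had the lower fold enrichments. Fth1, whose peak at chromosome 19, 9984323 to 9984992 had a summit in coding sequence, had the lowest fold enrichment of all 17843 peaks, 1.39, at a −log10 q of 4.32. The 4 genes in the highest of the 10 classes by mean count (Fth1, Ftl1, Hmox1 and Slc11a1, at 26056 or more) held 7 peaks with fold enrichments of 1.39 to 2.29. The 4 others (Tfrc, Slc40a1, Aco1 and Ireb2, at 898 to 1734) held 11 peaks of 2.62 to 4.70. The ranges did not overlap, and how far peaks of all genes of like abundance overlap was not computed. The 4 others were in classes 6 to 8, counted from the lowest. Over all tested genes the median fold enrichment was 3.29, 3.10 and 2.95 in those classes and 2.46 in the highest. It was 4.25 in the lowest class by mean count, which holds none of the 10 genes. Values of genes of unequal abundance are therefore set side by side here without a comparison of binding.

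**Figure D4:**
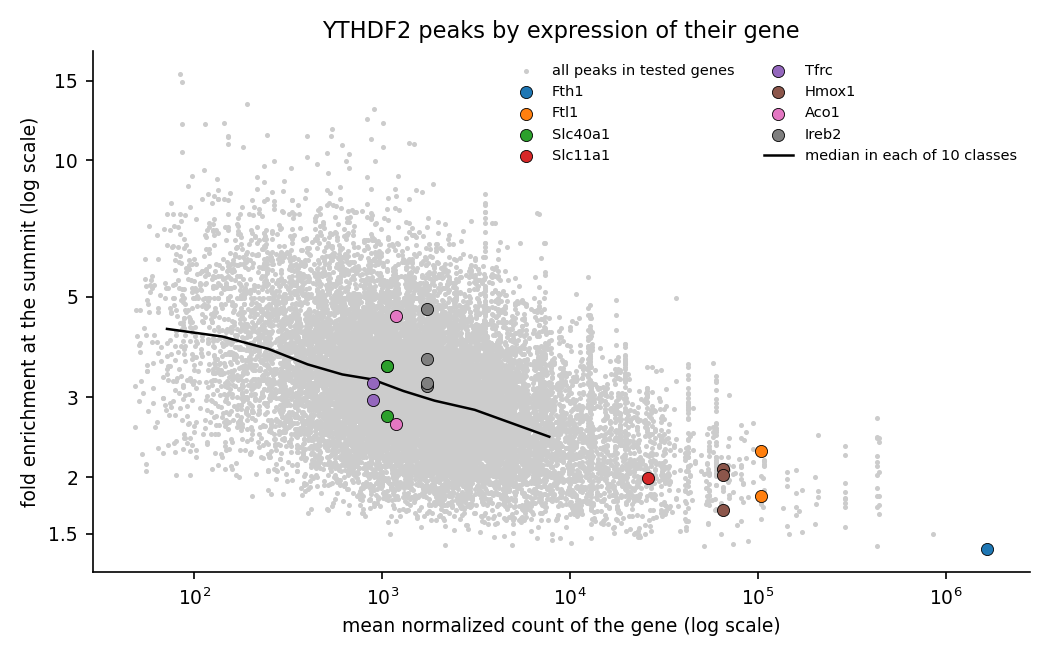
Fold enrichment at the summit of each YTHDF2 peak (y axis, log scale, the authors' values) against the mean normalized count of its gene (x axis, log scale), with peaks of the 8 iron genes in colour, peaks of all other tested genes in grey and the median in each of 10 classes of genes as a line. The line falls from 4.25 to 2.46, and Fth1 lies at the far right and bottom, at 1665002 and 1.39.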

How the data were processed

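The members and gene lists were chosen with earlier results of these data known. The 3 deposited files hold no value per library, so no count model could be fitted and the depth is unknown. As deposited, the mean normalized count is a signal averaged over libraries, per the file headers. The log2 fold change and its SE were deposited by the authors, per the file headers, which have the column names of DESeq2. The Wald score was deposited by the authors as the fold change over its SE. The p-value and its Benjamini-Hochberg adjustment over 10778 genes (mean of at least 48.0) are deposited too. The m6A list (exomePeak2, per the labels) gives positions alone. The YTHDF2 list holds the fold enrichment, a ratio deposited by the authors, with −log10 p and −log10 q in narrow-peak order as deposited. HISAT2, HOMER, ChIPseeker and mm10 are named, without a role, in the submitters' processing notes.

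Here, 95% intervals were taken as 1.96 SE on each side. Of 45541 YTHDF2 rows 3234 repeats were dropped. Names were matched directly or through RefSeq synonyms (GRCm38.p6), and 9345 of 10290 m6A peaks were placed within 1000 bp of their gene. A summit was given the feature it lay in, with UTRs and coding sequence before introns. The genes named are the 10 members and, from each list, those past the threshold and the 2 with the largest Wald statistic, beside genes named for their role. Since the design foresaw either counts or the authors' test, the latter was used. Likeness between genes across samples was not computed. Start windows were found for 7 of the 10 genes. Some genes are not reported here. The adjustment and overlap code was tested on simulated data. Python 3.11.15, pandas 2.3.3 and SciPy 1.17.1 were used.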

Additional observations from a re-analysis of the deposited data

How the results depend on the processing

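The count of 2 iron genes past the threshold was also 2 with no filter on low counts, after centring on the upper 25% of tested genes by mean count (median 0.04), and with at least 1.5-fold asked for. These are Ncoa4 and Trf, which were picked for their fold changes, so nothing is read from the unchanged count. Dropping the filter leaves each log2 fold change as it was, and centring lowers each by the same 0.04. No member changed its sign or its side of the threshold with either, and nothing is read from this. The 1 wider-list gene past the threshold opposite to Ythdf2, Slc39a14, became 0 with no filter on low counts, where more genes enter the adjustment, and 0 with at least 1.5-fold asked for; on the side of Ythdf2 the count was 0 under all settings. The 8 genes with a YTHDF2 peak were 7 at a −log10 q of at least 5, 6 at a fold enrichment of at least 2 and 8 without intron summits, and the 4 with an m6A peak were 3 with spans of at most 1000 bp. The 3 m6A peaks that overlapped a YTHDF2 peak became 1 of the 6 when 50% of the shorter peak had to be shared, where 40.7% of all placed m6A peaks did so, and 2 against peaks of fold enrichment 2 or more, where 44.6% did. No paired analysis was possible because the files hold no value per library, and leaving out a library was not run for the same reason. The unknown depth, the unstated direction of the comparison, the single peak lists and the untested origin of the YTHDF2 list limit all results.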

Other observations

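Some iron genes with high counts had fold changes far less precise than genes of like abundance. The ferrireductase Steap3, at a mean of 1999, had an SE of 0.72, where the median SE in its class of genes by mean count (10 equal classes) was 0.13. The cystine carrier Slc7a11, at 988, had an SE of 0.73 against 0.15. Ceruloplasmin, Cp, at 4101, had 0.47 and the hypoxia factor Hif1a, at 3438, had 0.45, both against 0.12, and Ftl1-ps1, at 1473, had 0.98 against 0.14. They were picked with their values in view, and libraries cannot be compared one by one.

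Lrp1, an endocytic receptor that also takes up heme bound to hemopexin, held 33 YTHDF2 peaks and no m6A peak, at −0.03 ± 0.11 in the authors' deposited table. Bach1, the heme-sensing repressor of Hmox1, held 6 m6A peaks and 5 YTHDF2 peaks, at 0.04 ± 0.14. The peak counts of both genes were not adjusted for transcript length.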
